A study of Homo sapiens with 16 samples.

Results

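The genes described here are YAP1 and WWTR1 (which encodes TAZ), their DNA-binding partner TEAD1, and 7 genes known as targets of the YAP/TAZ and TEAD complex, CCN1, CCN2, ANKRD1, AMOTL2, LATS2, AJUBA and AXL. These 10 genes were chosen by symbol and matched to their Ensembl identifiers among the 60666 genes in the count tables. The cells were U2OS, a human bone sarcoma line, carried as 4 puromycin-selected stable lines with hairpins against PIP4K2A (shPIP4K2A), against PIP4K2B (shPIP4K2B), against both (shPIP4K2A/2B, called the double knockdown here) or with the empty plko.puro vector. PIP4K2A and PIP4K2B encode lipid kinases that act on phosphatidylinositol phosphates. Each line was sequenced 6 h after UV-C at 30 J/m2 and untreated, as 2 libraries per group in 8 groups, from ribosomal-RNA-depleted total RNA. No line carried a hairpin without a target, so that loss of the kinase, another effect of the hairpin and a chance difference between stable lines cannot be told apart. Whether the 2 libraries of a group are separate cultures is not in the labels, so every p-value given here weighs a difference against a spread that may be technical only. These are bulk samples, in which fewer cells of a type and less RNA per cell cannot be told apart.

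YAP and TAZ are transcription cofactors that do not bind DNA themselves and reach their target genes through TEAD proteins. The Hippo kinases, with LATS1 and LATS2 at the end of the cascade, phosphorylate YAP and TAZ and keep them out of the nucleus. Several targets feed back on the pathway, since LATS2 and the angiomotin protein AMOTL2 both restrain YAP and TAZ. CCN1 and CCN2, which encode secreted matrix proteins, and ANKRD1, which encodes an ankyrin repeat protein, are common readouts of YAP/TAZ activity in adherent cells of mesenchymal origin.

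The sequences upstream of CCN2 and ANKRD1 are shown because these genes held more matches to the TEAD motif than the other members that could be searched, and because both are discussed below as genes that behaved differently after UV. They are the 250 bases before the RefSeq start in GRCh38.p14, both on the minus strand, with the matches in capitals, searched on both strands. GGAATG stands for TEAD, and TGANTCA, with any base at N, for a loose form of the AP-1 motif.
CCN2, chr6:131951373-131951622: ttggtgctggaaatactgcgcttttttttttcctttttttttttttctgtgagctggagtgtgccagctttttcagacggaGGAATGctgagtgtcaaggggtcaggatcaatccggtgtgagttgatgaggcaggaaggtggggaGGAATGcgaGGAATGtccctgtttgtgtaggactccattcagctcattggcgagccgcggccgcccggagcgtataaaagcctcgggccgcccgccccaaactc
ANKRD1, chr10:90921088-90921337: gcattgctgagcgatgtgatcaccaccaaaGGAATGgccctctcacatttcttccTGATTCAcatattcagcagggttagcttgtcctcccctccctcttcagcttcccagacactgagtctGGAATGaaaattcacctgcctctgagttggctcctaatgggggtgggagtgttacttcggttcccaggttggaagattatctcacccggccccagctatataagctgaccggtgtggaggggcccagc
RefSeq promoter windows of 300 bases, 250 before to 50 after the start, were matched for 8 of the 10 genes; CCN1 and TEAD1 had no entry. CCN2 held 3 matches to GGAATG, beginning at bases -169, -104 and -95 from the start. ANKRD1 held 2, beginning at -220 and -128, and 1 match to TGANTCA at -195. This last match read TGATTCA, with T at the free base, and a stricter AP-1 motif was not searched. YAP1, AMOTL2, LATS2, AJUBA and AXL each held 1 match to GGAATG in 1 window, and WWTR1 held 0 in its 2 windows. Of the 35116 windows in the table, 14.03% held at least 1 match to GGAATG, 1.37% at least 2, 0.128% at least 3, and 7.71% held TGANTCA. A match is a run of letters and was not tested for binding, and the absence of a match says only that these letters are not in the window.

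The files held RSEM expected counts, and the totals of 15 libraries lay between 28002912 and 39873512 counts. The vector untreated replicate 1 library held only 1278298 counts, with 14.6% of them mitochondrial, and across genes its values had a correlation of only 0.51 to 0.57 (r) with those of the remaining libraries; it was set aside throughout. In that library AXL stood at 126 CPM, against 1231 CPM in the other vector untreated library, and TEAD1 stood at 135 CPM, against 401 CPM. The vector untreated group therefore had 1 library, assumed in every test to vary like the other groups. The PIP4K2A knockdown UV libraries also stood further apart (r = 0.979 across genes) than the pairs of the 6 other groups (0.987 to 0.991). PIP4K2A was at 15.8 and 13.9 scaled CPM in untreated PIP4K2A knockdown cells and at 20.3 and 20.5 in untreated double knockdown cells, against 57.0 in vector. PIP4K2B was at 24.6 and 21.9 scaled CPM in untreated PIP4K2B knockdown cells and at 15.3 and 17.3 in untreated double knockdown cells, against 96.9 in vector, so that the targeted gene went with the label in each line. Among 7 markers of mesenchymal and osteoblast lineage the summed level was 5328 to 7191 CPM after UV and 4485 to 7423 CPM untreated, and none was at 0. The 6 epithelial markers summed to 21.9 to 44.0 CPM after UV and 25.9 to 41.6 CPM untreated, the 5 blood cell markers to at most 1.10 CPM and the 3 endothelial markers to at most 3.86 CPM. Of the 7 mesenchymal and osteoblast markers, 4 rose and 1 fell after UV in PIP4K2A knockdown, 3 and 1 in PIP4K2B knockdown, 2 and 1 in double knockdown and 1 and 1 in vector cells, with medians of 0.25 to 0.35 on the log2 scale. Over all tested genes the shares were 16.6% and 14% in PIP4K2A knockdown and 17.5% and 15.4% in PIP4K2B knockdown. They were 19.1% and 16.1% in double knockdown and 8.67% and 9.82% in vector cells. VIM, an intermediate filament gene, rose in the 3 knockdown lines (log2 fold change 0.56 to 0.80 with TMM, -0.31 to -0.02 under scaling to ribosomal protein genes), and RUNX2, a bone lineage factor, fell in all 4 lines (-0.96 to -0.61), as did 6.82% of all tested genes. CDH2, a mesenchymal cadherin, was lower than vector in all 3 untreated knockdown lines (-0.74 to -0.55), beside 1.09% of all tested genes called lower in all 3. Of the 7 markers, 0 were called higher and 2, 3 and 2 lower in the untreated PIP4K2A, PIP4K2B and double knockdown. The shares called lower over all tested genes were 4.13%, 4.99% and 2.96%. These comparisons rest on the single vector untreated library. Cytosolic ribosomal protein genes took 3.50 to 4.36% of counts after UV, against 2.44 to 3.10% untreated. Their part in the results below was not tested, other than by rescaling to these genes as given below.

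All 10 genes were expressed in every library. In TPM, which scale transcript abundance for length and library size and can be compared between genes, the median over the 15 libraries was highest for AXL (155 TPM), followed by CCN1 (78.6 TPM), AJUBA (56.1 TPM), CCN2 (55.5 TPM), TEAD1 (40.2 TPM), YAP1 (33.3 TPM), ANKRD1 (19.7 TPM), AMOTL2 (14.97 TPM), WWTR1 (8.32 TPM) and LATS2 (4.90 TPM). The ranges over libraries of neighbours in this order overlapped for all 9 neighbouring pairs, as for CCN1 (53.1 to 197 TPM) and AXL (117 to 221 TPM). WWTR1 was below YAP1 in the median, and among the TEAD genes TEAD4 (median 39.0 TPM) was close to TEAD1, with TEAD2 at 25.3 TPM and TEAD3 at 11.03 TPM. Below, levels are given as scaled CPM (CPM computed on library sizes after TMM scaling), which are comparable between libraries for 1 gene. Tests are edgeR's quasi-likelihood test over all 22597 genes tested, with Benjamini-Hochberg adjusted p and a call at 0.05.

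After UV, the feedback genes AMOTL2 and LATS2 and the readout gene ANKRD1 fell in all 4 lines, CCN1 fell in 3 lines, AJUBA fell in 3 lines, and YAP1, WWTR1 and TEAD1 passed the test in 0 of 4 lines each with TMM scaling. AXL rose in 3 lines and CCN2 in 2. The directions of AXL and CCN2 and the lack of a call for YAP1, WWTR1 and TEAD1 depended on the scaling, as given below. In mean TPM, which was not tested, all 10 genes were lower after UV in all 4 lines. The share of all genes that were lower in mean TPM is not given here, so this count cannot be read as particular to the 10 genes. In PIP4K2B knockdown cells AXL was at 131 TPM after UV, against 162 untreated, and CCN2 at 61.5, against 81.5. Of the 10 genes, 1 was higher and 4 lower after UV in PIP4K2A knockdown cells, where 16.6% of all tested genes were higher and 14% lower. In PIP4K2B knockdown cells 2 were higher and 4 lower (17.5% and 15.4% of all tested genes). In double knockdown cells 1 was higher and 5 lower (19.1% and 16.1%), and in vector cells 1 was higher and 5 lower (8.67% and 9.82%). The median log2 fold change of the 10 genes was between -0.26 (vector) and -0.17 (PIP4K2A knockdown), while that of all tested genes lay between 0.00 and 0.02. Of all tested genes, 6.82% fell in all 4 lines, against 3 of these 10.

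**Figure D1:**
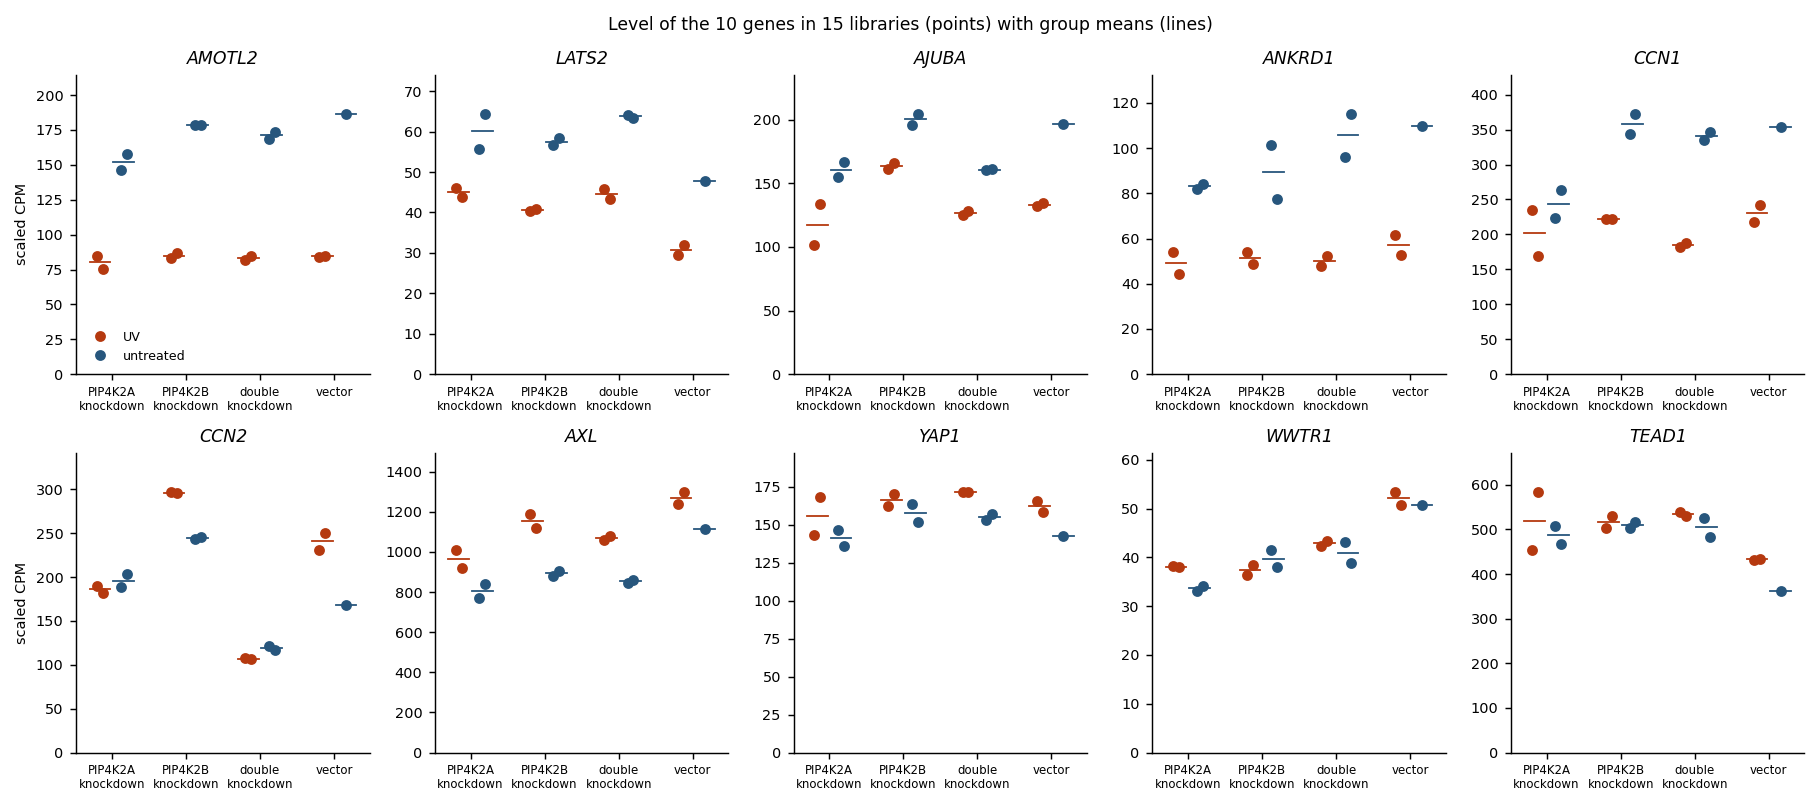
Scaled CPM (y axis, from 0) of each of the 10 genes in each library (points), with UV left of untreated in each line on the x axis and the group mean as a line; vector untreated has 1 library. AMOTL2, ANKRD1 and LATS2 lay lower in all 8 UV libraries than in all 7 untreated libraries, while CCN2 was at 106 to 121 scaled CPM in the double knockdown and at 244 to 297 in the PIP4K2B knockdown.

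Among the feedback genes, AMOTL2 (chr3:134355874-134375479, GRCh38, minus strand), whose product binds YAP and holds it in the cytoplasm, stood at 84.9 and 75.4 scaled CPM after UV in PIP4K2A knockdown cells, against 146 and 158 untreated. In PIP4K2B knockdown cells it was at 83.0 and 86.7 after UV, against 178 in both untreated libraries. In double knockdown cells it was at 81.8 and 84.7 after UV, against 169 and 174 untreated, and in vector cells at 84.3 and 84.4, against 187. The 8 UV libraries lay within 75.4 to 86.7 scaled CPM whatever the line, and the 7 untreated libraries within 146 to 187, without overlap, as held for 9.17% of all tested genes; 7.57% lay the other way, and 0 of the 10 members did. The log2 fold change was -0.92 ± 0.08 (SE) in PIP4K2A knockdown, -1.07 ± 0.08 in PIP4K2B knockdown, -1.04 ± 0.08 in double knockdown and -1.15 ± 0.10 in vector cells, with edgeR adjusted p between 2.74e-06 and 8.96e-06. Without PIP4K2A knockdown UV replicate 1 or 2, the value in that line was -1.04 or -0.84.

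LATS2 (chr13:20973032-21061547, minus strand), a kinase that phosphorylates YAP and TAZ, was at 46.1 and 43.8 scaled CPM after UV in PIP4K2A knockdown cells, against 55.7 and 64.4 untreated. It was at 40.3 and 40.8 after UV in PIP4K2B knockdown cells, against 56.7 and 58.4 untreated, and at 45.7 and 43.4 in double knockdown cells, against 64.1 and 63.5. In vector cells it was at 29.6 and 31.8 after UV, against 47.8 untreated. The highest UV library (46.1) was below the lowest untreated library (47.8), and within each line the groups were further apart than that. The fall was by 0.42 ± 0.09 (PIP4K2A knockdown), 0.50 ± 0.09 (PIP4K2B knockdown), 0.52 ± 0.09 (double knockdown) and 0.64 ± 0.11 (vector) on the log2 scale, with edgeR adjusted p between 0.000737 and 0.00363. In PIP4K2A knockdown cells the value was -0.48 or -0.38 without UV replicate 1 or 2, and the call was lost when the fit held only the 2 groups compared (adjusted p = 0.133).

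AJUBA (chr14:22971174-22982642, minus strand), a LIM protein known to bind LATS kinases and restrain them, had 101 to 166 scaled CPM in the 8 UV libraries (median 133) and 155 to 205 in the 7 untreated ones (median 167). The ranges overlapped because the PIP4K2B knockdown UV libraries (161 and 166) were as high as untreated libraries of other lines. The log2 fold change was -0.45 ± 0.11 in PIP4K2A knockdown (edgeR adjusted p = 0.00742), -0.34 ± 0.11 in double knockdown (adjusted p = 0.0261) and -0.56 ± 0.13 in vector cells (adjusted p = 0.00987). In PIP4K2B knockdown cells it was -0.29 ± 0.11 and did not pass (adjusted p = 0.0526), though it did with library totals (-0.60, 0.000924) and under scaling to ribosomal protein genes (-1.20, 3.15e-05). The double knockdown call was lost when any of the 4 libraries of that line was left out (adjusted p up to 0.122), and the vector call without vector UV replicate 1 (0.0505). In PIP4K2A knockdown cells the UV libraries differed, at 101 and 134, the value was -0.29 or -0.66 without UV replicate 1 or 2 (both called), and the call was lost when only those 2 groups were fitted (0.137).

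Among the readout genes, ANKRD1 (chr10:90912096-90921276, minus strand) was at 53.9 and 44.4 scaled CPM after UV in PIP4K2A knockdown cells, against 82.1 and 84.2 untreated. In PIP4K2B knockdown cells it was at 54.0 and 48.8, against 101 and 77.6, and in double knockdown cells at 48.0 and 52.4, against 95.9 and 115. In vector cells it was at 61.6 and 52.6, against 109.7 untreated. As for AMOTL2, the UV range (44.4 to 61.6) lay below the untreated range (77.6 to 115). The log2 fold change was -0.76 ± 0.14 in PIP4K2A knockdown, -0.80 ± 0.14 in PIP4K2B knockdown, -1.07 ± 0.14 in double knockdown and -0.94 ± 0.17 in vector cells (edgeR adjusted p 0.000135 to 0.00219). The PIP4K2A knockdown value was -0.93 or -0.62 without UV replicate 1 or 2 of that line. No left-out library ended these 4 calls or those of AMOTL2 and LATS2.

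CCN1 (chr1:85580761-85583962, plus strand; also called CYR61), a secreted matrix protein, was at 234 and 169 scaled CPM after UV in PIP4K2A knockdown cells, against 224 and 263 untreated. It was at 222 and 221 in PIP4K2B knockdown cells after UV, against 344 and 373, and at 182 and 187 in double knockdown cells, against 334 and 347. In vector cells it was at 218 and 243 after UV, against 354. The groups were apart in every line but the PIP4K2A knockdown, where replicate 1 of the UV group was above the lower untreated library. The log2 fold change was -0.69 ± 0.13 in PIP4K2B knockdown (edgeR adjusted p = 0.00158), -0.88 ± 0.13 in double knockdown (0.000296) and -0.62 ± 0.16 in vector cells (0.0159, lost at 0.0900 without vector UV replicate 1). In PIP4K2A knockdown cells it was -0.27 ± 0.13 and did not pass (adjusted p = 0.136), but the value turned on the library, at -0.55 without UV replicate 1 (adjusted p = 0.000756) and -0.06 without UV replicate 2 (0.694). It also passed as lower with library totals (-0.52, 0.00684) and under scaling to ribosomal protein genes (-1.09, 2.54e-06).

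CCN2 (chr6:131948176-131951373, minus strand; also called CTGF), another secreted matrix protein, did not follow CCN1. It was at 190.3 and 182 scaled CPM after UV in PIP4K2A knockdown cells, against 189 and 203 untreated, and at 107 and 106 in double knockdown cells, against 121 and 117. In PIP4K2B knockdown cells it was at 297 and 295 after UV, against 244 and 245 untreated, and in vector cells at 231 and 251, against 168. The replicates of each group lay close together, and the lines differed more than the treatments did. With TMM scaling CCN2 rose by 0.28 ± 0.08 on the log2 scale in PIP4K2B knockdown (edgeR adjusted p = 0.0141) and by 0.52 ± 0.10 in vector cells (0.00274), but these values were -0.63 (adjusted p = 8.38e-05) and -0.21 (0.140) when libraries were scaled to ribosomal protein genes, and -0.03 (0.78) and 0.26 (0.0572) when scaled to library totals. The PIP4K2B knockdown call was also lost when any of the 4 libraries of that line was left out (adjusted p up to 0.0919), and the vector value rests on 1 untreated library. In PIP4K2A knockdown and double knockdown cells the log2 fold change was -0.08 ± 0.08 (adjusted p = 0.487; -0.14 or -0.04 without UV replicate 1 or 2 of the PIP4K2A knockdown) and -0.16 ± 0.08 (0.128). Both passed as lower with library totals (-0.33 and -0.49) and under scaling to ribosomal protein genes (-0.88 and -1.03).

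AXL (chr19:41219203-41261766, plus strand), a receptor tyrosine kinase whose ligand is GAS6, was at 1008 and 919.7 scaled CPM after UV in PIP4K2A knockdown cells, against 771 and 841 untreated. It was at 1191 and 1122 in PIP4K2B knockdown cells after UV, against 882 and 907, and at 1059 and 1077 in double knockdown cells, against 845 and 862. In vector cells it was at 1241 and 1299, against 1114. The UV libraries were above the untreated ones within each line, but the vector untreated library was above the UV libraries of the PIP4K2A and double knockdown. With TMM scaling AXL rose by 0.26 ± 0.08 (PIP4K2A knockdown, edgeR adjusted p = 0.0284), 0.37 ± 0.08 (PIP4K2B knockdown, 0.00368) and 0.32 ± 0.08 (double knockdown, 0.00768) on the log2 scale, but the values were -0.55, -0.54 and -0.55 (adjusted p up to 8.99e-05) under scaling to ribosomal protein genes and 0.01, 0.06 and -0.0038 (adjusted p at least 0.541) with library totals. In vector cells it was 0.19 ± 0.10 (adjusted p = 0.213). The PIP4K2A knockdown value was 0.16 or 0.32 without UV replicate 1 or 2, and its call was lost in 9 of 15 fits that left out a library, the PIP4K2B knockdown call without its UV replicate 1 (0.0511), and the double knockdown call without its untreated replicate 1 or its UV replicate 2 (up to 0.0599).

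With TMM scaling the cofactor genes and TEAD1 passed the test in no line. YAP1 (chr11:102110461-102233423, plus strand) had 143 to 171 scaled CPM after UV (median 167) and 136 to 163 untreated (median 152), with log2 fold changes of 0.08 to 0.18. WWTR1 (chr3:149517235-149736714, minus strand) had 36.4 to 53.4 after UV (median 40.4) and 33.2 to 50.7 untreated (median 38.8), with log2 fold changes of -0.09 to 0.18. TEAD1 (chr11:12674591-12944483, plus strand) had 432 to 584 after UV (median 517) and 363 to 527 untreated (median 503), with log2 fold changes of 0.02 to 0.26. All 3 ranges overlapped, and edgeR adjusted p was at least 0.139 in these 12 tests. The 95% intervals of the log2 fold changes over the 12 tests ran from -0.26 at the lowest to 0.52 at the highest. Under scaling to ribosomal protein genes the same 12 values lay between -0.99 and -0.47, beside medians of all genes of -0.90 to -0.70, and all but that of TEAD1 in vector cells (edgeR adjusted p = 0.0689) passed as lower. Relative to those medians they lay between -0.09 and 0.23 on the log2 scale. With library totals WWTR1 passed as lower in the PIP4K2B knockdown (-0.39, 0.00453) and double knockdown (-0.26, 0.0376).

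**Figure D2:**
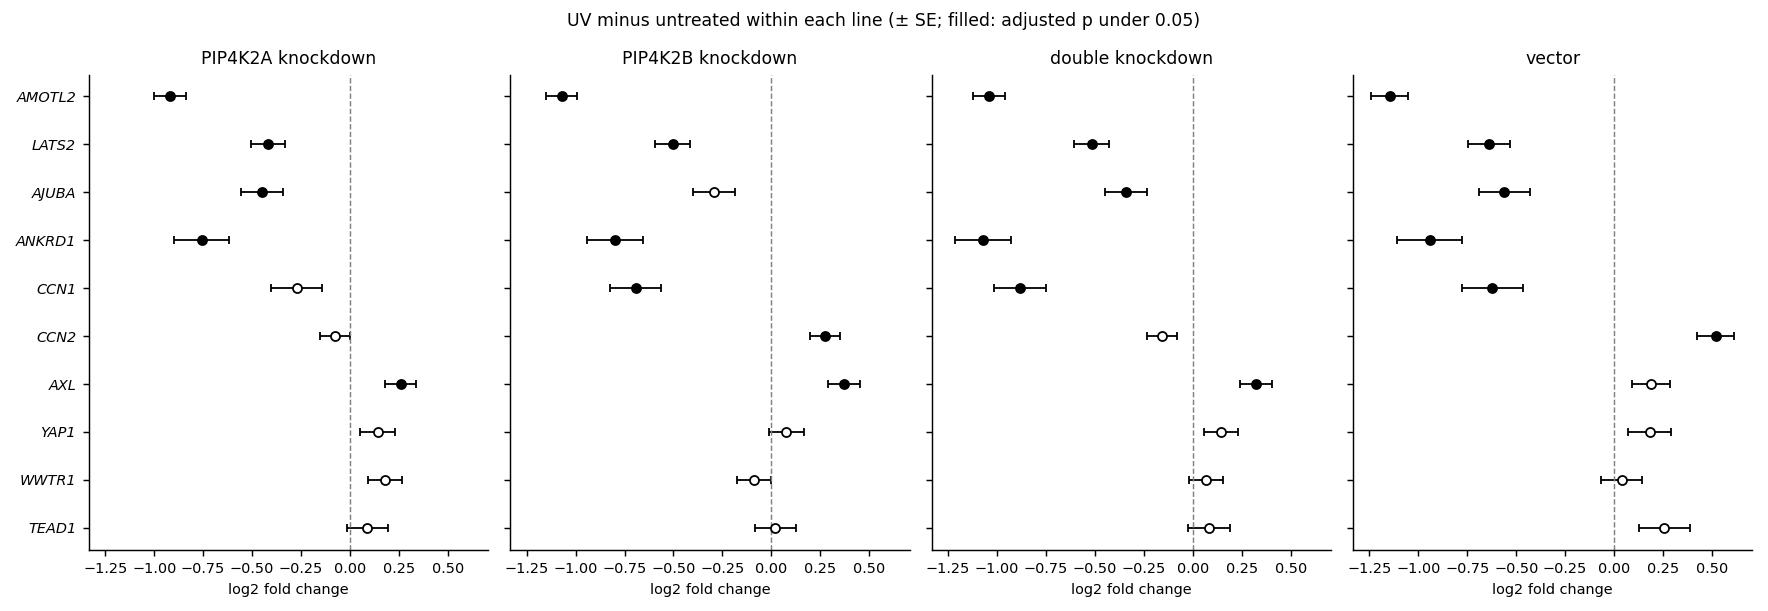
Log2 fold change after UV (x axis, UV minus untreated; TMM scaling) of the 10 genes (rows) in the 4 lines (panels), with bars of 1 SE and filled points for adjusted p under 0.05. AMOTL2, LATS2 and ANKRD1 are filled and left of 0 in all 4 panels, and YAP1, WWTR1 and TEAD1 are open in all 4; the AXL and CCN2 points called right of 0 lie left of 0 under scaling to ribosomal protein genes.

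The choice of scaling set the direction for part of the genes. Scaled to 76 cytosolic ribosomal protein genes, whose share of counts was higher after UV, the median of all genes moved to -0.79 (PIP4K2A knockdown), -0.90 (PIP4K2B knockdown), -0.85 (double knockdown) and -0.70 (vector) on the log2 scale. With this scaling 0 members rose and 38 of 40 member tests fell, against 5 that rose and 18 that fell with TMM. Over all genes, 196 rose and 14438 fell in PIP4K2A knockdown, 128 and 15164 in PIP4K2B knockdown, 136 and 14713 in double knockdown and 150 and 10900 in vector cells with this scaling. With TMM these counts were 3755 and 3166, 3951 and 3490, 4312 and 3645, and 1959 and 2219 in the same lines. Relative to the shifted median, AMOTL2 was lower by 0.94 to 1.17, ANKRD1 by 0.79 to 1.09, LATS2 by 0.43 to 0.67 and AJUBA by 0.30 to 0.59 on the log2 scale, close to the TMM values, and AXL was above the median by 0.16 to 0.36. CCN2 lay at 0.27 (PIP4K2B knockdown), 0.49 (vector), -0.09 (PIP4K2A knockdown) and -0.19 (double knockdown) relative to that median, also close to its TMM values. A change of scaling moves all genes of a comparison by about the same amount. This closeness to the TMM values was therefore fixed in advance and is no support for them. With library totals in place of TMM the median of all genes lay at -0.30 to -0.23, and 1382 rose and 5631 fell in PIP4K2A knockdown, 1491 and 6799 in PIP4K2B knockdown, 1276 and 6763 in double knockdown and 584 and 4290 in vector cells.

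Between knockdown and vector cells without UV, WWTR1 and AXL were lower and LATS2 and TEAD1 higher in some lines, while CCN2 went up in the PIP4K2B knockdown and down in the double knockdown. All of these rest on the single vector untreated library used. In PIP4K2A knockdown cells 0 members were higher and 2 lower (3.71% and 4.13% of all tested genes). In PIP4K2B knockdown cells 2 were higher and 0 lower (5.26% and 4.99%), and in double knockdown cells 1 was higher and 2 lower (3.24% and 2.96%). After UV, 1 was higher and 3 lower in PIP4K2A knockdown cells (11.3% and 9.01% of all tested genes), 2 higher and 1 lower in PIP4K2B knockdown cells (10.7% and 8.3%), and 1 higher and 2 lower in double knockdown cells (8.5% and 6.86%). The median log2 fold change of the 10 genes was -0.29, 0.02 and -0.09 untreated and -0.18, 0.02 and -0.13 after UV in the PIP4K2A, PIP4K2B and double knockdown, beside -0.01 to 0.01 for all tested genes. The comparisons with vector share its libraries. Under scaling to ribosomal protein genes the median of all genes moved to 0.32, 0.15 and 0.26 untreated and to 0.24, -0.03 and 0.12 after UV in the PIP4K2A, PIP4K2B and double knockdown. The counts of all genes higher and lower were then 2317 and 300, 1298 and 543, and 1762 and 220 untreated, against 838 and 933, 1188 and 1128, and 732 and 669 with TMM. After UV they were 4857 and 835, 1890 and 1494, and 2736 and 769 with that scaling, against 2563 and 2035, 2413 and 1875, and 1921 and 1550 with TMM. With library totals the PIP4K2B knockdown had 1782 higher and 2475 lower after UV, and the other splits are nearer to those of TMM.

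WWTR1, the gene of TAZ, was at 33.2 and 34.2 scaled CPM in untreated PIP4K2A knockdown cells, at 41.5 and 38.0 in PIP4K2B knockdown cells and at 43.2 and 38.8 in double knockdown cells, against 50.7 in vector. After UV it was at 38.2 and 38.0, at 36.4 and 38.5, and at 42.4 and 43.5 in these lines in the same order, against 53.4 and 50.8 in vector. Every knockdown library was below every vector library, of which the untreated group had 1. The share of all tested genes that lay apart in this way is not given here. The log2 fold change after UV was -0.45 ± 0.09 (PIP4K2A knockdown, edgeR adjusted p = 0.00289), -0.48 ± 0.09 (PIP4K2B knockdown, 0.00206) and -0.28 ± 0.09 (double knockdown, 0.0451), and 1.77% of all tested genes were lower in all 3 lines. Untreated, it was -0.59 ± 0.10 (0.00426), -0.35 ± 0.10 (0.0507; called at 0.0425 with library totals) and -0.31 ± 0.10 (0.112). The double knockdown call after UV was lost in 11 of 15 fits that left out a library (adjusted p up to 0.245) and under scaling to ribosomal protein genes (0.461), and the PIP4K2A knockdown calls were lost with that scaling (0.234 untreated, 0.225 after UV) and when only the groups compared were fitted (0.0589 and 0.105). YAP1 did not pass in any of these 6 comparisons, with log2 fold changes between -0.06 and 0.14.

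LATS2 was higher in the knockdown lines than in vector after UV, at 46.1 and 43.8 scaled CPM in PIP4K2A knockdown, 40.3 and 40.8 in PIP4K2B knockdown and 45.7 and 43.4 in double knockdown cells, against 29.6 and 31.8 in vector. The log2 fold change was 0.55 ± 0.09 (edgeR adjusted p = 0.00108), 0.40 ± 0.09 (0.00742) and 0.54 ± 0.09 (0.00151), and 2.51% of all tested genes were higher in all 3 lines. Untreated, it was 0.33 ± 0.11 (0.0902), 0.27 ± 0.11 (0.152) and 0.42 ± 0.11 (0.0429), and this last call was lost in 9 of 14 fits that left out a library. All 3 untreated values passed under scaling to ribosomal protein genes (0.63, 0.43 and 0.69; adjusted p = 0.00696, 0.0435 and 0.00439). The PIP4K2B knockdown call after UV was lost without vector UV replicate 1 (0.0816) and the PIP4K2A knockdown call when only the groups compared were fitted (0.0872).

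CCN2 separated the lines. After UV it was lower than vector in PIP4K2A knockdown (log2 fold change -0.37 ± 0.08, edgeR adjusted p = 0.00452) and double knockdown cells (-1.17 ± 0.08, 1.77e-06) and higher in PIP4K2B knockdown cells (0.30 ± 0.08, 0.0153). Untreated, it was higher in PIP4K2B knockdown (0.54 ± 0.10, 0.00317) and lower in double knockdown cells (-0.49 ± 0.09, 0.00716), and 0.22 ± 0.09 in PIP4K2A knockdown cells (0.188; 0.53 and called at 0.0151 under scaling to ribosomal protein genes). The PIP4K2A knockdown call after UV was lost without vector UV replicate 2 (0.0602), under scaling to ribosomal protein genes (0.298) and when only the groups compared were fitted (0.161). The PIP4K2B knockdown call after UV was lost without vector UV replicate 1 or either PIP4K2B knockdown UV library (up to 0.148) and under scaling to ribosomal protein genes (0.0620) or library totals (0.0514), and the untreated double knockdown call without its replicate 2 (0.0533) and under scaling to ribosomal protein genes (0.253). The double knockdown value after UV, -1.04 to -1.23 over the alternatives run, kept its call in all but the fit of 16 libraries (adjusted p = 0.220).

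AXL was lower than vector in PIP4K2A knockdown cells, by 0.47 ± 0.10 on the log2 scale untreated (edgeR adjusted p = 0.0114) and by 0.40 ± 0.08 after UV (0.00420), and in untreated double knockdown cells by 0.39 ± 0.10 (0.0352). In the 3 other comparisons it was -0.32 (untreated PIP4K2B knockdown), -0.14 (PIP4K2B knockdown after UV) and -0.25 (double knockdown after UV) and did not pass, though with library totals the untreated PIP4K2B knockdown (-0.35, 0.0311) and the double knockdown after UV (-0.30, 0.0195) did. All 3 calls were lost under scaling to ribosomal protein genes (0.273, 0.133 and 0.505), those of the PIP4K2A knockdown also when only the groups compared were fitted (0.0695 and 0.166), the untreated PIP4K2A call without PIP4K2A knockdown untreated replicate 1 (0.0683) and the double knockdown call in 10 of 14 fits that left out a library. TEAD1 was at 468 to 527 scaled CPM in the 6 untreated knockdown libraries, against 363 in vector, and edgeR called the difference for the PIP4K2B knockdown (log2 fold change 0.49 ± 0.13, adjusted p = 0.0346; lost in 8 of 14 such fits) but not for the PIP4K2A (0.43 ± 0.13, 0.0721) and double knockdown (0.48 ± 0.13, 0.0546). All 3 were larger under scaling to ribosomal protein genes, and the calls changed places, at 0.65 for the PIP4K2B (0.0803), 0.74 for the PIP4K2A (0.0409) and 0.75 for the double knockdown (0.0447), and with library totals the PIP4K2B value was 0.46 (0.0536). After UV, TEAD1 did not pass in the PIP4K2A knockdown (0.26 ± 0.11, 0.109), but did without its UV replicate 1 (0.42, 0.00296) and under scaling to ribosomal protein genes (0.50, 0.0425). CCN1, ANKRD1, AMOTL2 and AJUBA passed in none of their 24 comparisons with vector, with log2 fold changes between -0.54 (CCN1, untreated PIP4K2A knockdown, adjusted p = 0.0554) and 0.29 (AJUBA, PIP4K2B knockdown after UV, 0.0765). After UV in the PIP4K2A knockdown, CCN1 passed as lower without UV replicate 1 (-0.46, 0.00379, against 0.03 without replicate 2) and AJUBA without UV replicate 2 (-0.39, 0.00169, against -0.0097 without replicate 1).

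**Figure D3:**
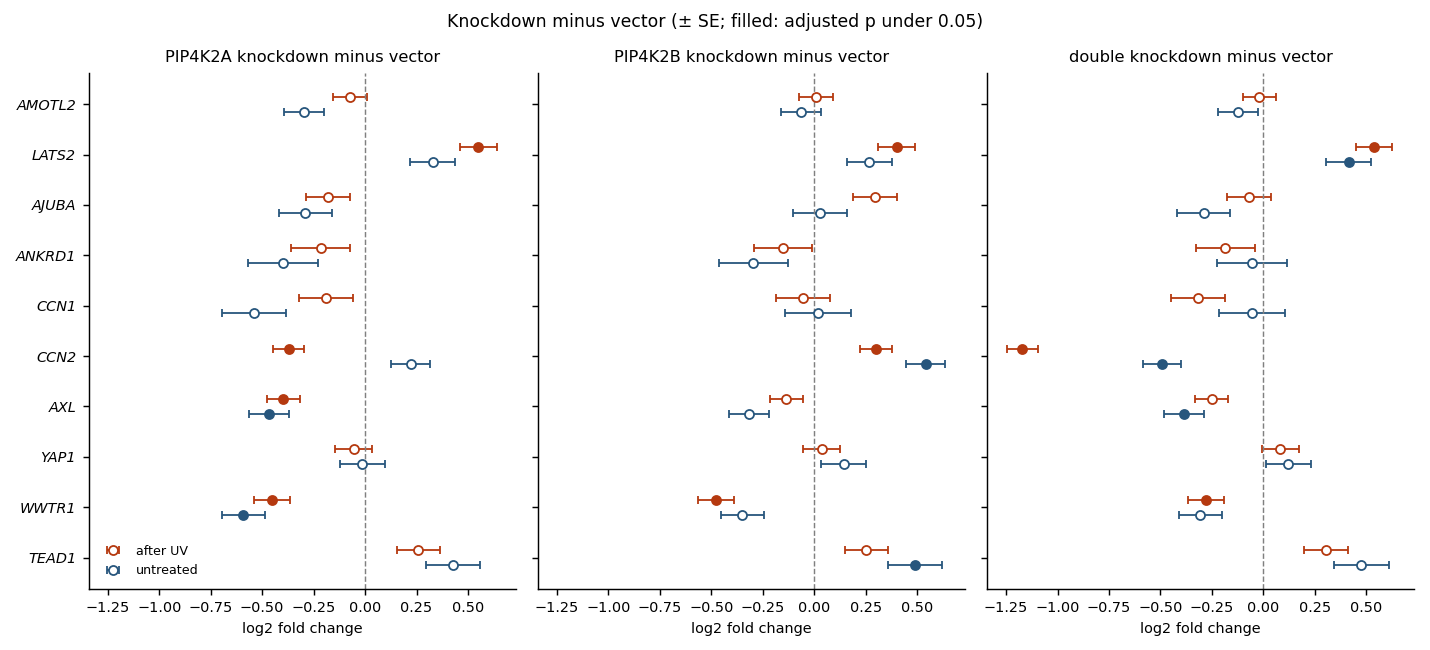
Log2 fold change of each knockdown line against vector (x axis; panels) for the 10 genes (rows), after UV (red, upper point) and untreated (blue, lower point), with bars of 1 SE and filled points for adjusted p under 0.05. WWTR1 is left of 0 and LATS2 right of 0 in all 3 panels, and CCN2 is at -1.17 after UV in the double knockdown, against 0.30 in the PIP4K2B knockdown.

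The size of the UV response was compared between each knockdown and vector in 30 tests and between knockdown lines in another 30. In edgeR's test 0 of these 60 passed after adjustment, and 7 had an unadjusted p under 0.05. Among the 22597 tested genes, 796 to 2088 had such an unadjusted p in each comparison. Of all tested genes 0.00885% passed in the PIP4K2A knockdown and in the double knockdown against vector and 0% in the PIP4K2B knockdown, and between lines 0.0133% in double against PIP4K2A knockdown and 0% in the other two. DESeq2 called 2 of the 60, with 8 at an unadjusted p under 0.05. The shares of all genes called by DESeq2 and by the other alternative fits are not given here. CCN2 had the smallest p. Its response differed from that of vector by -0.68 ± 0.12 in double knockdown (unadjusted p = 0.000106, adjusted p = 0.267) and by -0.59 ± 0.12 in PIP4K2A knockdown cells (0.000329, adjusted 0.436) on the log2 scale. DESeq2 called both (adjusted p = 8.49e-05 and 0.00518), and the double knockdown difference was also called without a filter on low counts (0.0405), with only the groups compared (0.0200) and without either PIP4K2A knockdown UV library (0.0256 and 0.0336). CCN1 differed by -0.61 ± 0.19 in double against PIP4K2A knockdown (adjusted p = 0.642), and this was called without a filter (0.0180) and without PIP4K2A knockdown UV replicate 2 (-0.83, 0.00316). Without that library the CCN1 responses of vector and of the PIP4K2B knockdown were also called as different from that of the PIP4K2A knockdown (0.0258 and 0.0155). For AMOTL2, the 95% intervals of the differences from vector ran from -0.17 to 0.47, and for ANKRD1 from -0.57 to 0.62.

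Set against each other, the knockdown lines differed mainly in CCN2. Untreated, CCN2 was lower in the double knockdown than in the PIP4K2A knockdown by 0.72 ± 0.08 (edgeR adjusted p = 0.000140) and than in the PIP4K2B knockdown by 1.04 ± 0.08 on the log2 scale (3.35e-06). After UV the same differences were -0.80 ± 0.08 (3.63e-05) and -1.47 ± 0.08 (1.64e-07), and the PIP4K2B knockdown was above the PIP4K2A knockdown by 0.67 ± 0.08 (0.000276, lost when only these 2 groups were fitted, 0.0845). No left-out library ended these 5 calls. Without PIP4K2A knockdown UV replicate 1 or 2, the difference between double and PIP4K2A knockdown after UV was -0.75 or -0.83. Of all tested genes, 7.1% were called in double against PIP4K2A knockdown, 15.4% in double against PIP4K2B knockdown and 3.16% in PIP4K2B against PIP4K2A knockdown untreated, and 19.5%, 17.7% and 14.4% after UV, beside 2, 1 and 2 members untreated and 1, 2 and 3 after UV. The other called differences had adjusted p between 0.0124 and 0.0464: CCN1 was higher in the untreated PIP4K2B and double knockdown than in the PIP4K2A knockdown (0.56 ± 0.13 and 0.48 ± 0.13, each lost in 12 of 15 fits that left out a library), and CCN2 in the untreated PIP4K2B knockdown (0.32 ± 0.08, lost in 12 of 15). After UV, AJUBA was higher in the PIP4K2B than in the PIP4K2A knockdown (0.47 ± 0.11; lost without either PIP4K2B knockdown UV library) and lower in the double than in the PIP4K2B knockdown (-0.37 ± 0.11, lost in 5 of 15), and AXL was higher in the PIP4K2B than in the PIP4K2A knockdown (0.26 ± 0.08, lost in 10 of 15). Under scaling to ribosomal protein genes CCN2 in the untreated PIP4K2B against the PIP4K2A knockdown (0.17, 0.409), both AJUBA differences (0.21, 0.365, and -0.22, 0.388) and that of AXL (0.01, 0.923) were lost. With library totals those of AXL (0.15, 0.213), of CCN2 (0.26, 0.0878), of CCN1 for the PIP4K2B knockdown (0.49, 0.0509) and of AJUBA for the double knockdown (-0.33, 0.0513) were lost. LATS2, not called here with TMM, was lower in the PIP4K2B than in the PIP4K2A knockdown after UV under scaling to ribosomal protein genes (-0.40, 0.0145) and with library totals (-0.27, 0.0467).

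Among 23 further genes of the Hippo kinase cascade and its regulators, all tested, 2 rose and 3 fell after UV in PIP4K2A knockdown, 2 and 6 in PIP4K2B knockdown, 1 and 4 in double knockdown and 0 and 3 in vector cells. Of all tested genes, 16.6% rose and 14% fell in PIP4K2A knockdown, 17.5% and 15.4% in PIP4K2B knockdown, 19.1% and 16.1% in double knockdown and 8.67% and 9.82% in vector cells. FRMD6, an upstream FERM-domain protein, fell in all 4 lines (log2 fold change -0.81 to -0.57; lost in vector without vector UV replicate 2), with 174 and 168 scaled CPM after UV in vector cells, against 255 untreated, where 6.82% of all tested genes fell in all 4 lines. MAP4K4, a kinase upstream of LATS, was called higher in the PIP4K2A knockdown alone (0.67 ± 0.17; 353 and 208 scaled CPM after UV, against 175 and 176 untreated) and SCRIB, a polarity protein, in the PIP4K2B knockdown (0.62 ± 0.15) and double knockdown (0.51 ± 0.15), but these 3 values were -0.16, -0.28 and -0.36 under scaling to ribosomal protein genes, and the MAP4K4 call and the double knockdown SCRIB call were each lost in 3 of 15 fits that left out a library. Between untreated knockdown and vector cells, 4 rose and 0 fell in PIP4K2A knockdown, 5 and 1 in PIP4K2B knockdown and 2 and 0 in double knockdown. Over all tested genes the shares in these lines were 3.71% and 4.13%, 5.26% and 4.99%, and 3.24% and 2.96%. WWC1 and WWC2, scaffolds that promote LATS activity, were higher in all 3 lines, as were 1.04% of all tested genes. WWC1 was at 65.2 and 64.7, at 82.9 and 78.7, and at 61.5 and 66.0 scaled CPM in the PIP4K2A, PIP4K2B and double knockdown, against 39.2 in vector (log2 fold change 0.73 ± 0.15, 1.04 ± 0.15 and 0.70 ± 0.15). FRMD6 and the Hippo kinase gene STK4 were higher in the PIP4K2A and PIP4K2B knockdown (0.69 and 0.71 for FRMD6, 0.44 and 0.48 for STK4). Leaving out 1 library, of any group in the fit, ended the double knockdown calls of WWC1 (1 of 14 such fits) and WWC2 (2 of 14), the PIP4K2A knockdown call of FRMD6 (1 of 14) and the STK4 calls (8 and 1 of 14). WWC2 was at 112 and 106, 138 and 129.9, and 109.6 and 106 scaled CPM in the 3 lines, against 79.6 in vector (0.46, 0.75 and 0.44). After UV, 7 genes of the list were higher and 1 lower than vector in PIP4K2A knockdown, 5 and 1 in PIP4K2B knockdown and 2 and 0 in double knockdown cells. Over all tested genes the shares were 11.3% and 9.01%, 10.7% and 8.3%, and 8.5% and 6.86%.

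Of 7 other TEAD family genes and cofactors, 6 were tested and VGLL1 was below the filter. VGLL4, a cofactor that competes with YAP for TEAD, fell in all 4 lines, as did 6.82% of all tested genes, to 15.4 and 9.91 scaled CPM in PIP4K2A knockdown cells, against 27.4 and 28.9 untreated, and to 8.75 and 7.39 in vector cells, against 27.7 untreated. Its log2 fold change was -1.16 ± 0.16, -1.25 ± 0.17, -1.04 ± 0.16 and -1.77 ± 0.19 in the PIP4K2A, PIP4K2B and double knockdown and vector. Over all tested genes, 16.6% were higher and 14% lower in PIP4K2A knockdown and 17.5% and 15.4% in PIP4K2B knockdown. The shares were 19.1% and 16.1% in double knockdown and 8.67% and 9.82% in vector cells. Counts in the list were 0 higher and 2 lower in PIP4K2A knockdown, 1 and 1 in PIP4K2B knockdown, 0 and 1 in double knockdown and 0 and 2 in vector cells. VGLL2 made up the other lower calls (-0.57 ± 0.16 in PIP4K2A knockdown, -0.66 ± 0.18 in vector), and TEAD2 was the higher call (0.46 ± 0.13 in PIP4K2B knockdown, -0.45 under scaling to ribosomal protein genes); each of these 3 was lost without either of 2 libraries. Without UV, VGLL2 was lower than in vector in all 3 knockdown lines (-0.87 ± 0.18, -0.61 ± 0.18 and -1.05 ± 0.18), at 4.50 to 7.18 scaled CPM, against 10.9, as held for 1.09% of all tested genes. The PIP4K2A and PIP4K2B knockdown calls of VGLL2 were lost under scaling to ribosomal protein genes, and the PIP4K2B call in 8 of 14 fits that left out a library. VGLL3 was higher in the double knockdown (110.1 and 101.5 scaled CPM, against 51.5 in vector; 1.04 ± 0.19) and TEAD2 lower in the PIP4K2B knockdown (36.1 and 39.4, against 59.5; -0.66 ± 0.15).

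Of 16 other genes of a published YAP/TAZ target signature, 14 were tested and IGFBP3 and NT5E were not. After UV, 3 rose and 2 fell in PIP4K2A knockdown, 1 and 4 in PIP4K2B knockdown, 1 and 3 in double knockdown and 1 and 2 in vector cells, with medians of -0.11 to -0.01 on the log2 scale. Over all tested genes the shares were 16.6% and 14% in PIP4K2A knockdown and 17.5% and 15.4% in PIP4K2B knockdown. They were 19.1% and 16.1% in double knockdown and 8.67% and 9.82% in vector cells. NUAK2, a kinase, fell in all 4 lines, as did 6.82% of all tested genes, to 1.01 to 2.61 scaled CPM after UV, against 3.51 to 7.27 untreated (-1.88 to -1.35). F3, which encodes tissue factor, fell in all 4 to 2.10 to 4.60, against 5.75 to 8.54 (-1.51 to -0.91; lost in vector without vector UV replicate 1). GADD45A, which is also a p53 target, rose in all 4 with TMM scaling (0.89 to 1.00), as did 6.08% of all tested genes, but did not pass under scaling to ribosomal protein genes (0.02 to 0.27). TGFB2, a growth factor, fell in the PIP4K2B knockdown (-0.56 ± 0.11) and the double knockdown (-0.68 ± 0.11). In untreated knockdown against vector cells 2 rose and 3 fell in PIP4K2A knockdown, 5 and 3 in PIP4K2B knockdown and 1 and 2 in double knockdown. Over all tested genes the shares in these lines were 3.71% and 4.13%, 5.26% and 4.99%, and 3.24% and 2.96%. CCDC80, a secreted matrix protein, was at 71.4 and 68.5 scaled CPM in PIP4K2A and 103 and 85.1 in PIP4K2B knockdown cells, against 174 in vector (-1.32 ± 0.12 and -0.89 ± 0.12). GADD45A was higher in the same 2 lines (0.78 ± 0.15 and 1.16 ± 0.15), NUAK2 higher in the PIP4K2B knockdown (1.05 ± 0.20) and FJX1 lower in the double knockdown (-0.78 ± 0.15).

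Of 14 paralogs and partners of the 10 genes, 13 were tested and CCN6 was not. After UV, 2 rose and 0 fell in PIP4K2A knockdown, 4 and 2 in PIP4K2B knockdown, 2 and 2 in double knockdown and 1 and 1 in vector cells. Over all tested genes the shares were 16.6% and 14% in PIP4K2A knockdown and 17.5% and 15.4% in PIP4K2B knockdown. They were 19.1% and 16.1% in double knockdown and 8.67% and 9.82% in vector cells. ANKRD2, an ANKRD1 relative at 0.161 to 1.497 scaled CPM over the libraries, had a call in the PIP4K2B knockdown (1.71 ± 0.60, lost in 12 of 15 fits that left out a library). LIMD1, the AJUBA relative, fell in the PIP4K2B knockdown (-0.39 ± 0.09), double knockdown (-0.27 ± 0.09) and vector (-0.51 ± 0.11), and MERTK, the AXL relative, in the PIP4K2B (-0.52 ± 0.14) and double knockdown (-0.49 ± 0.14). The double knockdown LIMD1 call was lost in 9 of 15 such fits, and the MERTK calls in 2 and 4 of 15. GAS6, the AXL ligand, rose in the PIP4K2B knockdown (0.46 ± 0.16, lost in 5 of 15 such fits, and -0.45 under scaling to ribosomal protein genes). Without UV, GAS6 was at 21.0 and 24.5 scaled CPM in PIP4K2A, 22.1 and 18.1 in PIP4K2B and 31.1 and 37.3 in double knockdown cells, against 60.8 in vector (-1.42 ± 0.18, -1.60 ± 0.18 and -0.83 ± 0.18). CCN4, a relative of CCN1 and CCN2, was at 6.30 and 7.07, 3.90 and 3.83, and 8.68 and 7.33 in these lines, against 14.3 (-1.10 ± 0.16, -1.89 ± 0.16 and -0.84 ± 0.16). GAS6 and CCN4 were thus lower in all 3 lines, as were 1.09% of all tested genes. AMOT, the AMOTL2 relative, was lower in the PIP4K2A (-0.66 ± 0.11) and PIP4K2B knockdown (-0.78 ± 0.11), and PROS1, another ligand of the AXL family, higher in the double knockdown (1.29 ± 0.23). In untreated knockdown against vector cells, 0 rose and 3 fell in PIP4K2A knockdown, 0 and 4 in PIP4K2B knockdown and 1 and 2 in double knockdown cells. Over all tested genes the shares in these lines were 3.71% and 4.13%, 5.26% and 4.99%, and 3.24% and 2.96%. Under scaling to ribosomal protein genes the double knockdown calls of GAS6 and CCN4 and the PIP4K2A knockdown call of AMOT were lost.

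The 10 genes differ widely in span, the distance from the start to the end of the gene. CCN1 and CCN2 both span 3.2 kb, ANKRD1 9.2 kb, AJUBA 11.5 kb, AMOTL2 19.6 kb, AXL 42.6 kb, LATS2 88.5 kb, YAP1 123 kb, WWTR1 219.5 kb and TEAD1 269.9 kb. With TMM scaling, in vector cells the median log2 fold change of protein-coding genes was 0.23 for 3066 genes under 10 kb, 0.05 for 9050 genes of 10 to 100 kb and 0.01 for 3198 genes over 100 kb. The 5 members that fell in vector cells span less than 100 kb, and the 3 members over 100 kb did not pass. In vector cells 8.45% of protein-coding genes under 10 kb were called lower, 12.78% of those of 10 to 100 kb and 11.91% of those over 100 kb. The shares called higher were 19.96%, 9.86% and 5.94% in the same order. Falls in vector cells were thus not confined to genes under 100 kb. CCN1 and CCN2, of equal span, were at -0.62 and 0.52 in vector cells with TMM and at -1.35 and -0.21 under scaling to ribosomal protein genes, which moved the median of all genes to -0.70. The part of span in the responses was not tested.

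**Figure D4:**
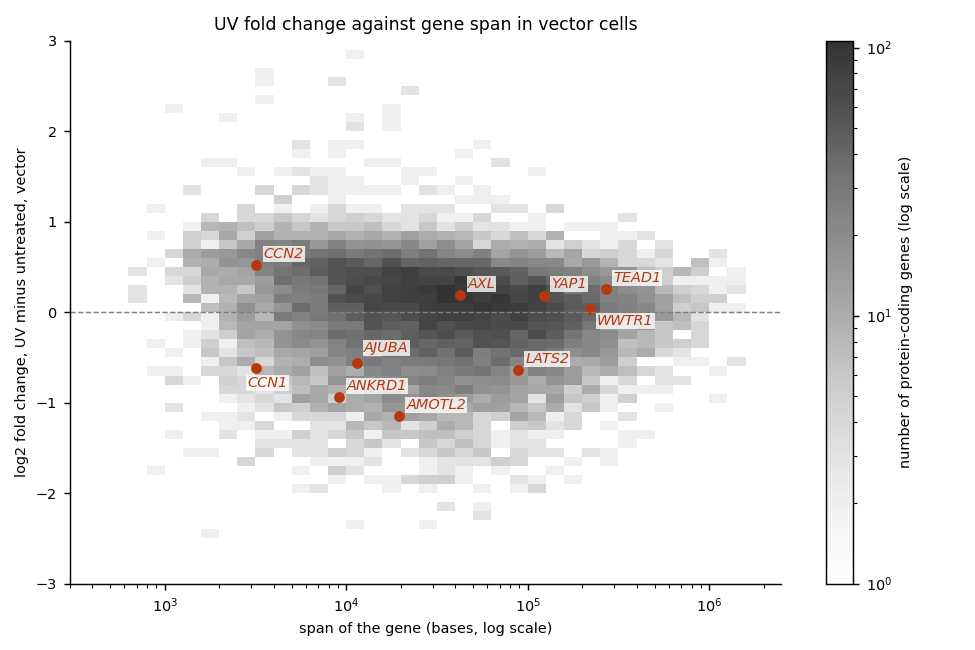
Log2 fold change after UV in vector cells (y axis, UV minus untreated, TMM scaling, shown between -3 and 3) against the span of the gene (x axis, log scale), with the number of protein-coding genes per bin in grey (log scale) and the 10 genes as red points. AMOTL2 (-1.15), ANKRD1 (-0.94), LATS2 (-0.64), CCN1 (-0.62) and AJUBA (-0.56) lie below 0, at spans of 3.2 to 88.5 kb.

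The files also give, for each gene and library, the transcript length weighted by RSEM's isoform estimates. For CCN2 (2338 bases), ANKRD1 (1790) and LATS2 (5546) this length was the same in all libraries, while it ranged from 2239 to 3616 bases for YAP1, from 2256 to 3736 for WWTR1 and from 1304 to 2141 for AJUBA. In limma's test on log2 length after UV, 0 of 40 member tests passed and 0 had an unadjusted p under 0.05 (smallest adjusted p from limma = 0.415), where 2.51% (PIP4K2A knockdown), 1.75% (PIP4K2B knockdown), 2.66% (double knockdown) and 1.01% (vector) of the genes with a length test were called. The 40 include the tests of CCN2, ANKRD1 and LATS2, which could not pass because their length did not vary. Without PIP4K2A knockdown UV replicate 2, AMOTL2 (-0.18), YAP1 (-0.50) and TEAD1 (-0.19) were called shorter after UV in that line on the log2 scale. These calls rest on UV replicate 1 as the only UV library of that line. It held the shortest lengths of AMOTL2 (3445 bases), YAP1 (2239) and TEAD1 (6554) among the 15 libraries. The share of all genes called in that fit is not given here. Whether the counting used strand is not given in the sources used here; 15 annotated genes overlap 8 of the members, and none had counts above 0.968% of its member's (WWTR1-AS1, opposite WWTR1).

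Over the 8 group means, ANKRD1 and AMOTL2 had the most similar profiles of the 45 pairs of members, with a root mean square difference of 0.12 on the log2 scale after centring each gene. YAP1 and TEAD1 followed (0.14), then WWTR1 and AXL (0.16). CCN2 was unlike the others, its nearest member being AXL (0.46). Among 11093 genes at 5 CPM or more, genes near to CCN1 included LRFN1 (0.10) and DBR1 (0.11), and those nearest to CCN2 were DLGAP1-AS2 (0.14), CNRIP1 (0.16) and KCNA6 (0.18). Nearest to YAP1 were CPSF2 (0.03), PPP2R5C (0.04) and YWHAG (0.04), and nearest to WWTR1 were MCMBP (0.06), RAD51D (0.07) and ZNF646 (0.07). These are descriptions over 8 group means that share libraries and scaling.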

How the data were processed

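RNA was measured by sequencing in 16 libraries. Per the submitters' processing notes, STAR, SAMtools, RSEM and the GRCh38 build were used, with no versions or roles given. The authors deposited 1 RSEM gene table per library, with expected counts (estimated reads per gene, not normalized), TPM (scaled to transcript length and library) and a transcript length in bases weighted by isoform abundance. The strand setting is not given in the sources used here.

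Expected counts were rounded to whole numbers. edgeR 4.0.16 (R 4.3.3, limma 3.58.1) was run on 15 libraries with filterByExpr (minimum count 10), TMM scaling, a group-means design and the quasi-likelihood test, with Benjamini-Hochberg adjustment over 22597 genes and a threshold of 0.05. The common biological coefficient of variation was 11.3%, against 41.9% with all 16 libraries. Every ± beside a log2 fold change is an SE. Ranges of ± 1.96 SE are narrower than 95% intervals of the quasi-likelihood test would be. Weighted lengths were tested with limma on log2 values. The scripts were tested on simulated data with known changes. The members and gene lists were chosen with earlier results of these data known. From each list, the called genes with the largest absolute log2 fold change were named, up to 4 after UV and 4 in untreated knockdown against vector cells. Some genes that this rule and the measure of likeness pick are not reported here. The alternatives were all 16 libraries, DESeq2 1.42.0, RLE size factors, scaling to ribosomal protein genes, other filters, only the groups compared, a replicate block, each library left out, and library totals without TMM (chosen after seeing the data).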

Additional observations from a re-analysis of the deposited data

How the results depend on the processing

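Of 51 member results that passed the test, all 51 kept direction and call with DESeq2 and with a filter of 1 CPM in 2 libraries, 50 with RLE size factors, 46 with no filter, 40 with library totals, 38 with only the groups compared and 32 under scaling to ribosomal protein genes. With the vector untreated replicate 1 library put back, 48 lost the call and 3 turned round: AJUBA after UV in vector (0.21) and AXL in PIP4K2A and double knockdown against vector, untreated (0.46 and 0.54). Under scaling to ribosomal protein genes 5 turned round: AXL after UV in PIP4K2A, PIP4K2B and double knockdown (-0.55, -0.54 and -0.55) and CCN2 after UV in PIP4K2B knockdown and vector (-0.63 and -0.21). With library totals CCN2 after UV in PIP4K2B knockdown (-0.0301) and AXL in double knockdown (-0.0038) turned round.

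The number of member calls after UV was 23, against 0 with all 16 libraries and 38 under scaling to ribosomal protein genes (20 to 25 with a library left out). For knockdown against vector it was 7 untreated, against 0 with 16 libraries, 13 with DESeq2 and 11 with only the groups compared (4 to 18 with a library left out), and 10 after UV, against 0 with 16 libraries and 6 under scaling to ribosomal protein genes (7 to 17). Between knockdown lines it was 5 untreated, against 0 with 16 libraries, 3 with library totals and 2 with the replicate block (2 to 9), and 6 after UV, against 0 with 16 libraries (3 to 10). Differences of the UV response from vector numbered 0, against 1 with no filter, 2 with DESeq2 and 1 with only the groups compared (0 to 3), and between knockdown lines 0, against 1 with no filter (0 to 2). Length calls numbered 0 (0 to 3). The highest of these counts came from leaving out either PIP4K2A knockdown UV library, and the cause was not tested. The shares of all genes called in the alternative fits are not given here, apart from the all-gene counts under the other scalings above. The counts of member calls in those fits therefore cannot be read as particular to these genes. Over the left-out libraries, 632 of 752 values kept the call, 120 lost it and 0 turned round. Comparisons that need vector untreated replicate 2 have no value without it.

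Libraries sharing a replicate number did not deviate together (21 pairs, -0.117 to 0.187, 3 over 0.1), so the numbers were not taken as pairs. With the replicate block the counts of calls were 24 after UV, 5 and 9 for knockdown against vector untreated and after UV, 2 and 5 between knockdown lines untreated and after UV, and 0 for the response differences and lengths; 44 of the 51 results kept their call.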
